A study of Populus trichocarpa with 18 samples.

Results

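The genes described here are 300 whose transcripts fell at both time steps in poplar wood-forming protoplasts that received the control plasmid. They were chosen from the sGFP control libraries alone, with each gene's reads expressed as CPM, the count per 1000000 counts of the library, and put on the scale log2(CPM + 1). A gene qualified when it was lower at 12 h than at 7 h and lower at 25 h than at 12 h in all 3 replicate numbers, with each step averaging -0.8 or below. Of 40668 loci, each counted by the first gene model listed for it, 352 met these conditions, and the 300 with the lowest change from 7 to 25 h were kept. With TMM-scaled CPM, TMM being a scaling that trims genes with extreme ratios, 229 genes met the conditions and 222 of the 300 were among them.

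RNA was sequenced from Populus trichocarpa (black cottonwood) protoplasts, cells freed of their walls, which had been isolated from the differentiating xylem of stems of greenhouse plants and transfected with DNA by polyethylene glycol. The 18 libraries form 6 groups of 3. Protoplasts in 3 of the groups overexpressed sGFP, a green fluorescent protein, as the control and were sampled 7, 12 or 25 h after transfection. Protoplasts in the other groups overexpressed PtrSND1-B1 together with sGFP and were sampled at the same times, so every group carried sGFP. They are called PtrSND1-B1 libraries here. The labels give no cultivar, plant age, untransfected group or share of cells that took up the plasmid, nor whether the replicates are separate plants or isolations. All p-values therefore measure only the spread between these libraries.

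SND1-type factors are NAC-domain transcription factors that switch on the program of secondary wall formation, in which young xylem cells lay down cellulose, xylan and lignin. Protoplasting removes the wall and places cells in a wound-like, osmotically stressed state, and the transcriptome of isolated plant cells is known to shift over the following hours. Transcript levels in such cells reflect both synthesis and decay of each message.

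Library depth over the first models was 2690853 to 13970708 counts, and both extremes were among the 25 h libraries. All 300 genes passed the filter on low counts in the 18 libraries, together with 23777 first models in all, and 299 of them passed it in the 9 PtrSND1-B1 libraries. None of the identifiers in the deposited counts matched the reference gene table used here, so the genes have no names or functions here, and the xylem label could not be checked against marker genes. The expression of the PtrSND1-B1 transgene could not be checked for the same reason.

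The 300 genes together took up a falling part of the control transcriptome. Their share of all counts in sGFP libraries 1, 2 and 3 was 1.72%, 1.67% and 1.73% at 7 h. It was 0.690%, 0.669% and 0.874% at 12 h, and 0.335%, 0.292% and 0.272% at 25 h. The 3 times do not overlap, which the choice of the genes fixes. In bulk RNA, fewer cells of a type and less RNA per cell cannot be told apart as sources of such a fall.

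The PtrSND1-B1 libraries, which played no part in the choice, showed the same order. There the genes held 1.61%, 1.60% and 1.67% of counts at 7 h, 0.663%, 0.695% and 0.905% at 12 h, and 0.327%, 0.285% and 0.293% at 25 h. Every 12 h library lay below every 7 h library, and every 25 h library below every 12 h library. The mean share went from 1.703% ± 0.0333 (SD, n = 3) to 0.299% ± 0.0321 with sGFP, and from 1.63% ± 0.0364 to 0.302% ± 0.0226 with PtrSND1-B1.

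**Figure D1:**
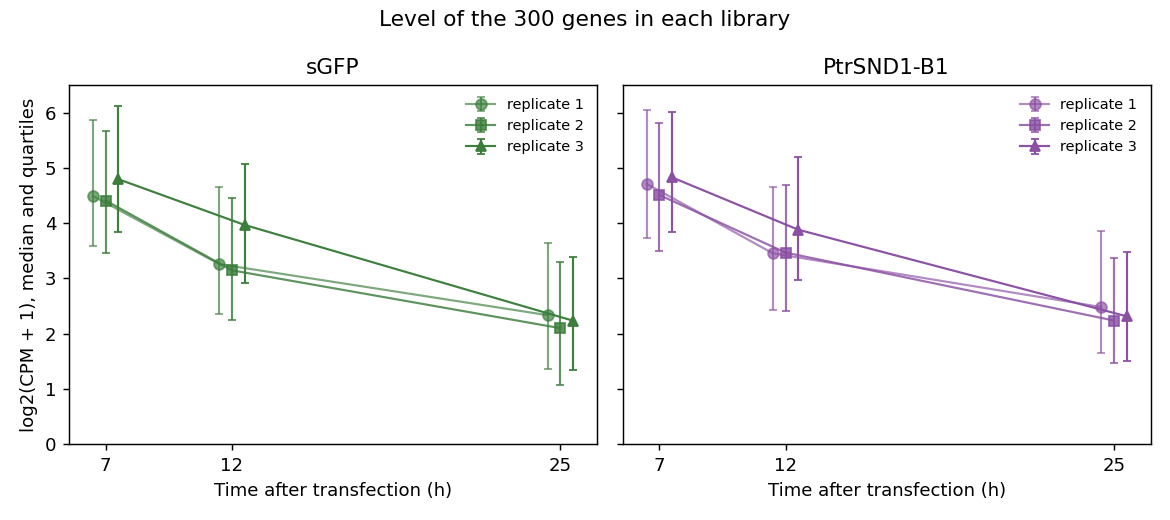
Level of the 300 genes in each library, as the median (symbols) and quartiles (bars) of log2(CPM + 1) against time in hours, for sGFP on the left and PtrSND1-B1 on the right, with lines joining libraries of the same replicate number. The medians fall at both steps in both constructs, and replicate 3 is the highest at 12 h, at 3.97 and 3.88.

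The genes ranged from abundant to barely detected. At 7 h in sGFP protoplasts their mean level ran from 3.34 to 974.3 CPM with a median of 24.97 CPM, and 251 genes stood at 10 CPM or more. By 25 h the range was 0.0904 to 165.6 CPM with a median of 3.80 CPM, and 79 genes stood at 10 CPM or more. With PtrSND1-B1 the median went from 26.6 CPM at 7 h to 12.5 CPM at 12 h and 4.51 CPM at 25 h, and 81 genes were still at 10 CPM or more at 25 h.

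Low levels at 25 h limit what can be read from the rarest genes. At 25 h 20 genes had 0 reads in at least 1 sGFP library and 19 in at least 1 PtrSND1-B1 library. Library 2 held 19 of those zeros with sGFP, at 2736863 counts, and 11 with PtrSND1-B1, at 2690853 counts, the shallowest libraries of their groups. The pseudocount of 1 CPM shrinks the change of such genes.

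The 6 genes with the highest level at 7 h illustrate the abundant end. Their sGFP means lay between 356.3 and 974.3 CPM at 7 h and between 55.6 and 165.6 CPM at 25 h, changes of -3.40 to -1.91 on the log2(CPM + 1) scale. With PtrSND1-B1 they lay between 273.2 and 933.0 CPM at 7 h and between 38.6 and 131.3 CPM at 25 h, changes of -3.35 to -1.84. The least abundant of them at 25 h was thus still read at 38.6 CPM.

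In the sGFP libraries, which chose the genes, the changes are a description only. The mean step from 7 to 12 h ranged from -1.97 to -0.81 over the genes, with a median of -1.08. The step from 12 to 25 h ranged from -2.04 to -0.80, with a median of -1.16. From 7 to 25 h the change ran from -3.55 to -1.83, with a median of -2.24 and quartiles at -2.53 and -2.03. A fall of at least 4-fold on this scale was seen for 233 genes and one of at least 8-fold for 23.

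Genes just inside and just outside the limits differed little. The last gene kept had a change of -1.827 from 7 to 25 h and the first left out one of -1.824. Of 2894 first models that fell at both steps in all 3 numbers, those nearest the step threshold had weaker steps of -0.8003 and -0.8007 just inside and of -0.7997 and -0.798 just outside. The 52 genes that met the step conditions but were left out had a median change of -1.74 ± 0.161 (SD over 3 replicate numbers) with PtrSND1-B1.

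The same genes were lower at 25 h with PtrSND1-B1. Over all 300, the median change from 7 to 25 h was -2.09, -2.14 and -2.36 in replicate numbers 1, 2 and 3, a mean of -2.20 ± 0.147 (SD, n = 3). Over the 23777 models tested the corresponding value was -0.17 ± 0.144. The TMM-scaled edgeR fit, over another set of 22590 models, had a median fitted change of -0.01. TMM itself sets the typical change between libraries near 0, so that median is no separate observation. The median of the 300 genes with TMM-scaled CPM was -2.04. Individual genes ranged from -3.69 to -0.60, with quartiles at -2.56 and -1.87, and no gene had a mean change above 0.

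Counts of genes are set beside the same counts over all models tested. With PtrSND1-B1, 299 of the 300 genes were lower at 25 h than at 7 h in all 3 replicate numbers, against 37.7% of the tested models. For 279 genes every 25 h library lay below every 7 h library, against 24.9%. At both steps and in all 3 numbers 263 genes fell, against 11.7%. The full set of conditions, thresholds included, was met by 197 of the 300 genes, against 1.64%.

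Applied to the PtrSND1-B1 libraries in place of the sGFP libraries, the step conditions picked 391 genes. This list and the 352 sGFP genes shared 213, which is 60.5% of the sGFP list and 54.5% of the PtrSND1-B1 list.

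**Figure D2:**
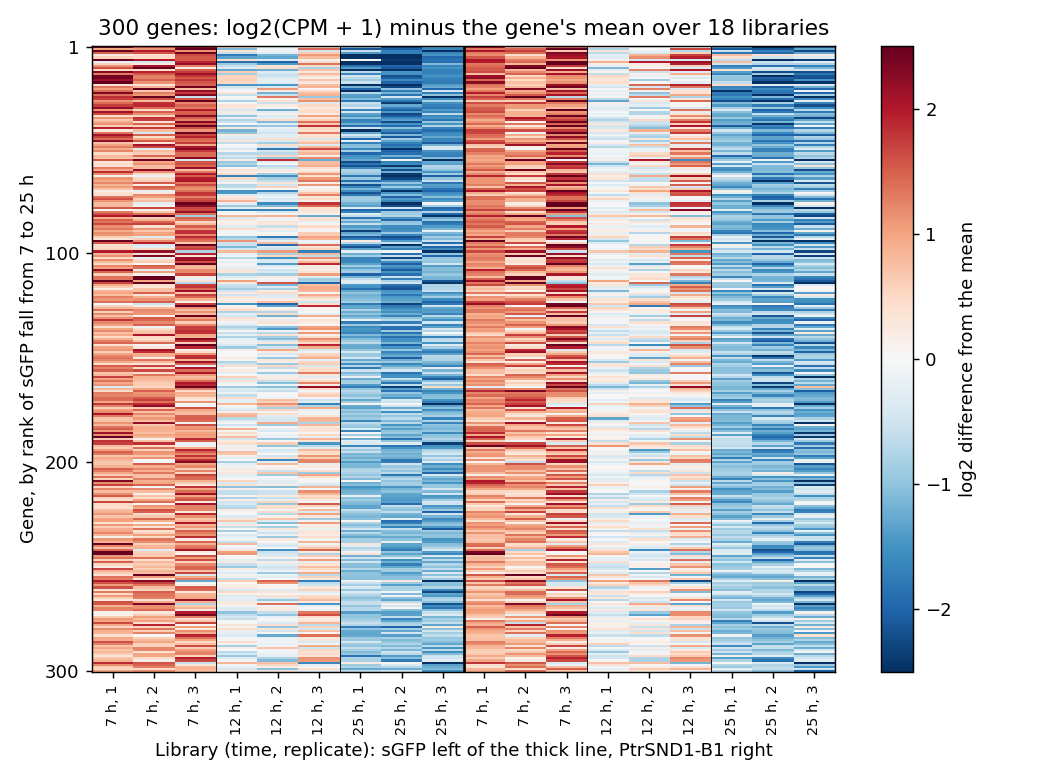
The 300 genes (one line each, ordered by their sGFP fall from 7 to 25 h, largest at the top) in the 18 libraries, coloured by log2(CPM + 1) minus the gene's mean over all libraries. The 7 h libraries are mostly above the mean and the 25 h libraries mostly below it for both constructs, and for 299 genes the 25 h level with PtrSND1-B1 is below the 7 h level in all 3 replicate numbers.

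The test that used no sGFP library was edgeR's quasi-likelihood test, fitted to all 22590 models kept in the 9 PtrSND1-B1 libraries, with Benjamini-Hochberg adjustment at 0.05. At 25 h against 7 h it called 226 of the 299 genes tested lower and 0 higher, where 6.69% of all models were called lower. The fitted log2 fold changes of the 226 genes ran from -6.08 to -0.90, with a median of -2.43. The other 73 genes also had negative estimates, from -4.78 to -0.70 with a median of -2.05. Blocked by replicate number, the test called 295 genes lower, against a background of 13.4%. Scaled by library size only, it called 261 genes lower, and over all models 2198 lower and 1134 higher, where TMM gave 1511 lower and 1515 higher.

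Libraries of the same number deviated together across times in the PtrSND1-B1 group, so the blocked fit is given beside the unblocked one. Libraries of the same number and time also deviated together between constructs, so the PtrSND1-B1 libraries are not fully separate from those that chose the genes. How much this adds to the shared fall was not tested.

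Single steps passed the unblocked test less often. From 7 to 12 h the unblocked edgeR test called 0 of the 299 genes and 0% of all models lower, although 173 of the genes, against 11.9% of all models, had an unadjusted p under 0.05. DESeq2 called 56 of the genes lower at this step, against 0.682%. With the replicate block 164 genes were called lower at this step, against 2.09%. From 12 to 25 h edgeR called 5 genes lower, against 0.0398%, and DESeq2 called 67, against 0.695%. Leaving out any 1 of the 9 libraries left 0 genes and 0 of all models called lower at this step. Without library 2 of 7 h it was 1 gene, and 1 of all models. With the block the count at this step was 169 genes, against 2.26%.

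On CPM without TMM scaling, the pace of the fall differed between replicate numbers in the same way in both constructs. In sGFP libraries the median first step was -1.23, -1.19 and -0.86 in numbers 1, 2 and 3, and the median second step was -0.89, -1.09 and -1.58. With PtrSND1-B1 the first step was -1.21, -1.05 and -0.82 and the second -0.93, -1.08 and -1.54. Number 3 thus had the smallest first and the largest second step in either construct on this scale, and number 1 the reverse. The TMM factor of number 1 dropped from 7 to 12 h, from 1.06 to 0.842 with sGFP and from 1.03 to 0.893 with PtrSND1-B1. That of number 3 dropped from 12 to 25 h, from 1.06 to 0.790 and from 1.10 to 0.897. Such a drop makes a fall larger on this scale than with TMM. The steps of each number were not recomputed with TMM.

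The first step spans 5 h and the second 13 h. The first step was the larger of the 2 mean steps for 128 genes with sGFP and for 104 with PtrSND1-B1. The larger step was the same in both constructs for 192 of the 300 genes. These counts were not made over all models, and same-numbered libraries of the constructs share deviations. Median steps with PtrSND1-B1 were -1.03 ± 0.197 and -1.18 ± 0.317 (SD over 3 numbers), a difference smaller than the spread between numbers.

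The size of the change was related between the constructs. In the 100 genes with the largest sGFP fall the PtrSND1-B1 median from 7 to 25 h was -2.67 ± 0.199 (SD over 3 numbers), beside -2.76 ± 0.283 with sGFP. In the next 100 it was -2.23 ± 0.0933 beside -2.25 ± 0.168, and in the last 100 it was -1.90 ± 0.146 beside -2.0 ± 0.211. Across the 300 genes the changes in the constructs had a Pearson r of 0.587 and a Spearman rho of 0.618. These describe genes, which are not independent replicates, and same-numbered libraries share deviations.

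**Figure D3:**
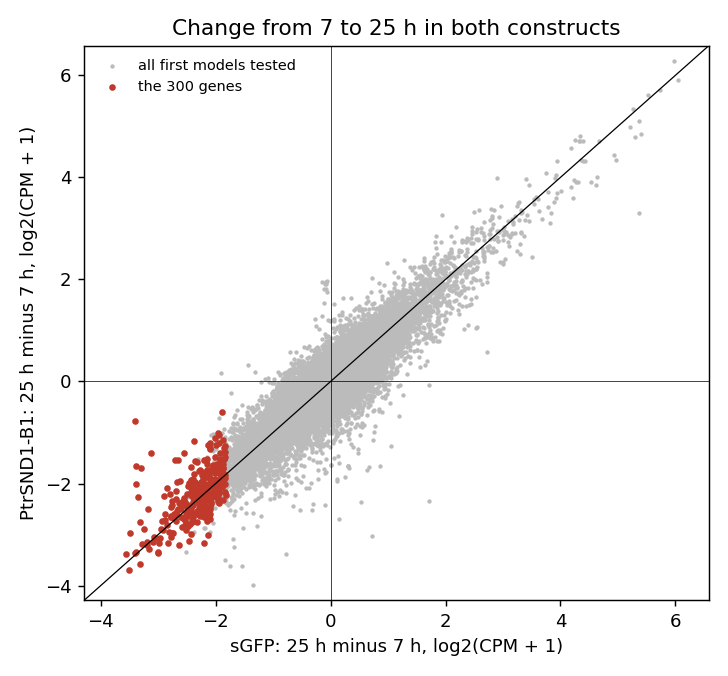
Change from 7 to 25 h on the log2(CPM + 1) scale (mean of 3 replicate numbers) with sGFP (horizontal axis) and with PtrSND1-B1 (vertical axis), for all models tested (grey) and the 300 genes (red), with a line of equal change. The red points end at -1.83 on the sGFP axis, where the choice was made, and lie between -3.69 and -0.60 on the PtrSND1-B1 axis.

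A few genes fell far less with PtrSND1-B1. The PtrSND1-B1 change was at least 1 log2 unit above the sGFP change for 11 genes, against 0.32% of all models tested, and at least 1 below it for 0, against 0.883%. Picking genes for low sGFP changes favours the first of these counts over the second. Of the 23 genes that fell at least 8-fold with sGFP, 13 did so with PtrSND1-B1, and 22 of the 300 did so with PtrSND1-B1 in all, against 0.135% of all models.

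The largest gap belonged to a gene with a mean sGFP change of -3.40. In sGFP libraries 1, 2 and 3 it stood at 22.3, 26.0 and 62.2 CPM at 7 h, at 5.05, 8.08 and 41.7 CPM at 12 h, and at 0.644, 1.83 and 6.27 CPM at 25 h. With PtrSND1-B1 it stood at 45.4, 27.0 and 88.1 CPM at 7 h, at 16.4, 36.8 and 64.4 CPM at 12 h, and at 34.4, 26.0 and 22.9 CPM at 25 h. Its PtrSND1-B1 levels overlap between all times, and its change was -0.78 ± 0.982 (SD, n = 3). At 25 h every PtrSND1-B1 library was above every sGFP library.

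The gene least lowered with PtrSND1-B1 was a rare one. Its sGFP levels were 5.65, 4.45 and 3.30 CPM at 7 h and 0.716, 0 and 0.768 CPM at 25 h. With PtrSND1-B1 they were 2.41, 3.02 and 3.92 CPM at 7 h, 2.51, 3.16 and 3.65 CPM at 12 h, and 0.976, 1.86 and 2.45 CPM at 25 h, a change of -0.60 ± 0.164 (SD, n = 3). Its PtrSND1-B1 levels at 7 and 12 h overlap, and library 3 of 25 h reaches the lowest library of 7 h. Beyond these 2 genes, the next 3 in this order changed by -1.01 ± 0.692, -1.05 ± 0.377 and -1.11 ± 0.514.

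POPTR_0003s01920.1 had the largest sGFP fall of all. Its sGFP levels in libraries 1, 2 and 3 were 294.2, 159.2 and 241.1 CPM at 7 h, 78.7, 40.1 and 74.6 CPM at 12 h, and 26.9, 10.96 and 20.2 CPM at 25 h. With PtrSND1-B1 they were 229.9, 94.5 and 143.2 CPM at 7 h, 65.6, 44.5 and 52.1 CPM at 12 h, and 20.1, 8.55 and 12.9 CPM at 25 h. The 3 times do not overlap in either construct, and library 2 was the lowest of every group. In the PtrSND1-B1 libraries the log2 fold change from 7 to 25 h was -3.29 (SE 0.430, edgeR adjusted p = 0.00191).

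For POPTR_0003s01920.1 neither step alone passed the unblocked edgeR test, with log2 fold changes of -1.45 (edgeR adjusted p = 0.209) and -1.84 (adjusted p = 0.136). With the replicate block they were -1.40 (edgeR adjusted p = 0.00385) and -1.90 (adjusted p = 0.00133). DESeq2 without a block gave -1.44 (adjusted p = 0.0453) and -1.86 (adjusted p = 0.00511). Another 3 of the 300 genes are listed within 10 identifiers of it, and their changes from 7 to 25 h ran from -3.19 to -3.16 with sGFP and from -3.29 to -3.14 with PtrSND1-B1. Neighbours in the list may be near copies that share reads, so their values are uncertain as separate genes.

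POPTR_0015s13900.1 had the next largest sGFP fall. Its sGFP levels were 42.9, 46.7 and 136.4 CPM at 7 h, 9.22, 19.0 and 57.5 CPM at 12 h, and 4.01, 4.38 and 6.27 CPM at 25 h. With PtrSND1-B1 they were 53.9, 58.6 and 152.6 CPM at 7 h, 11.7, 21.0 and 69.3 CPM at 12 h, and 4.10, 4.09 and 7.95 CPM at 25 h. Library 3 was the highest of every group, and at 12 h it lay above libraries 1 and 2 of 7 h in both constructs. The PtrSND1-B1 log2 fold change from 7 to 25 h was -3.85 (SE 0.689, edgeR adjusted p = 0.00678). In edgeR the single steps of POPTR_0015s13900.1 passed with the block, at -1.50 (adjusted p = 0.00582) and -2.28 (adjusted p = 0.00234), against adjusted p of 0.397 and 0.189 without it. The second step also passed in DESeq2 without a block, at -2.46 (adjusted p = 0.0112).

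**Figure D4:**
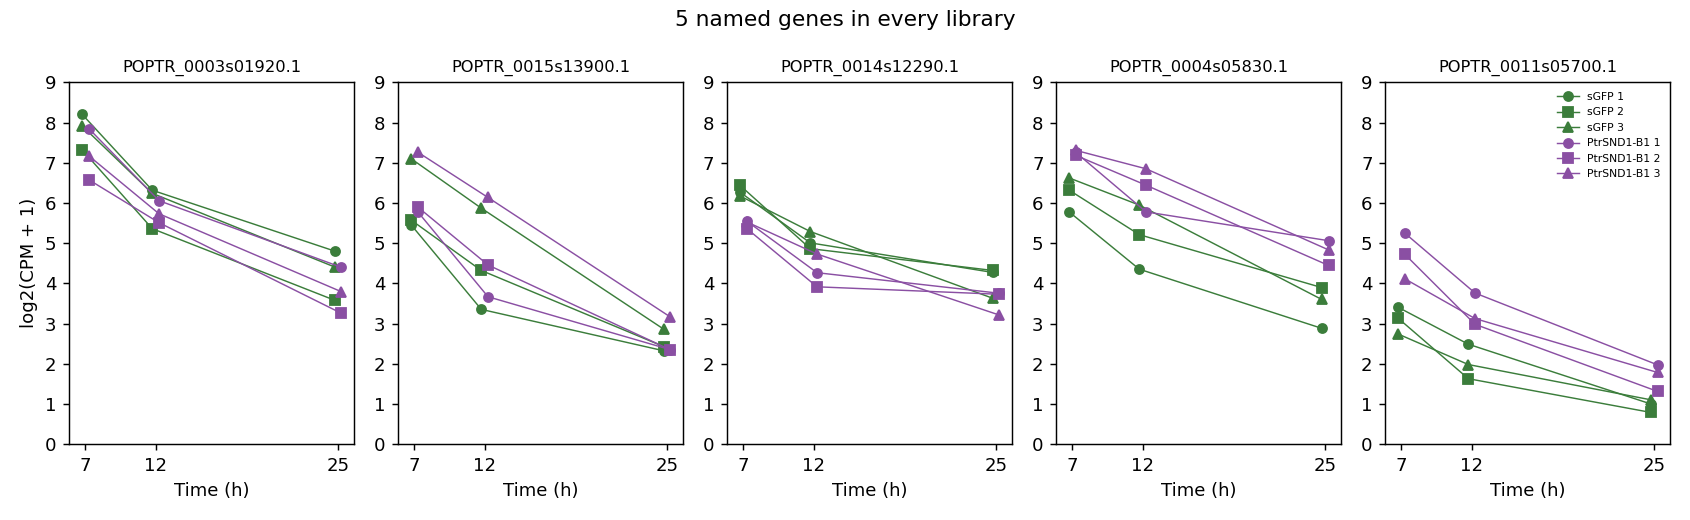
Levels on the log2(CPM + 1) scale of 5 named genes in every library against time in hours, with sGFP in green, PtrSND1-B1 in purple and a symbol for each replicate number. All 5 genes decline in both constructs, and the lines of the constructs lie apart for POPTR_0011s05700.1 and, in the other direction at 7 and 12 h, for POPTR_0014s12290.1.

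The median difference between the constructs over the 300 genes was small at each time, and its sign depended on the pair, the scaling or the libraries kept. The comparison shares the sGFP libraries with the choice of the genes, so it is a description. The median difference, PtrSND1-B1 minus sGFP within a replicate number, was -0.0602, 0.000413 and -0.0207 at 7 h, a mean of -0.0268 ± 0.0308 (SD, n = 3). At 12 h the differences were 0.000325, 0.063 and 0.0206, a mean of 0.0281 ± 0.0322. At 25 h they were 0.00439, 0.0146 and 0.110, a mean of 0.0431 ± 0.0585. All pairs were thus positive at 12 and 25 h on this scale. Each mean was smaller than the SD between replicate numbers. Over all models tested the median differences of the 9 pairs lay between -0.0438 and 0.108. The medians of the TMM-scaled edgeR fit over the 300 genes were -0.03, -0.02 and 0.0045 at 7, 12 and 25 h, so the sign at 12 h depended on the scaling. Leaving out single libraries moved these fitted medians from -0.11 to 0.05 at 7 h, from -0.15 to 0.11 at 12 h and from -0.06 to 0.12 at 25 h.

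**Figure D5:**
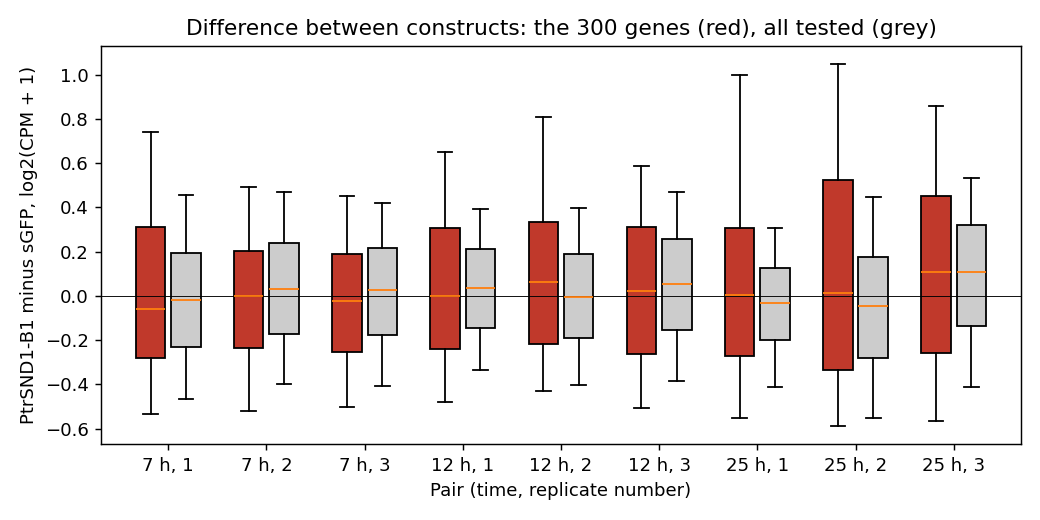
Difference between constructs, PtrSND1-B1 minus sGFP on the log2(CPM + 1) scale, in each pair of libraries with the same time and replicate number, for the 300 genes (red) and all models tested (grey). Boxes show the quartiles with the median as a line, and whiskers the range from the 10th to the 90th percentile, and the medians of the 300 genes lie between -0.0602 and 0.110.

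Single genes did stand apart. Over the 9 pairs of libraries 42 genes were higher with PtrSND1-B1 in every pair, against 2.17% of all models, and 19 were lower in every pair, against 1.87%. The 42 genes had median differences of 0.52 at 7 h, 0.71 at 12 h and 0.75 at 25 h, and their median fall from 7 to 25 h was -2.51 ± 0.365 with sGFP and -2.20 ± 0.311 with PtrSND1-B1 (SD over 3 numbers). The 19 genes had median differences of -0.55, -0.45 and -0.51 at the 3 times.

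A mean difference of at least 1 log2 unit was found for 14 genes in the higher direction, against 0.223% of all models tested, and 13 of them were higher in all 9 pairs. In the lower direction it was found for 1 gene, at -1.02, against 0.114%. Of the 10 genes with the largest sGFP fall, 4 were among the 14. The choice of the genes used the same sGFP values, so this overlap and these counts are not separate from it. The gene with the largest mean difference, 2.46, had 1.22, 1.10 and 5.37 CPM at 25 h with sGFP and 40.4, 15.6 and 19.0 CPM with PtrSND1-B1. Its levels at 7 h were 19.8, 16.9 and 88.7 CPM with sGFP and 93.8, 62.9 and 144.9 CPM with PtrSND1-B1, so library 3 of sGFP lay within the PtrSND1-B1 range at 7 h, and no library did at 25 h.

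Averaged over the 3 times, edgeR's test on the 18 libraries called 2 of the 300 genes higher with PtrSND1-B1, against 0.135% of all models, and 1 lower, against 0.0252%. Blocked by replicate number, it called 24 higher, against 0.463%, and 14 lower, against 0.475%. With a term for each pair of time and number, a fit added after the data were seen, it called 43 higher, against 3.91%, and 43 lower, against 4.79%. The unblocked count of 3 rose to 11 without sGFP library 3 of 12 h and to 7 without sGFP library 3 of 7 h. These fits called 47 higher and 8 lower of 24653 models, and 34 higher and 7 lower of 24316. The count of the 300 genes was 0 without sGFP library 1 or 2 of 7 h or of 25 h, or PtrSND1-B1 library 2 of 7 h or 3 of 25 h. Of all models, 17 to 24 were called higher and 5 or 6 lower there, against 32 and 6 with all 18 libraries. The count of the 300 genes was 1 without sGFP library 2 of 12 h, or PtrSND1-B1 library 1 of 7 h, 2 or 3 of 12 h, or 1 of 25 h. There 16 to 23 of all models were called higher and 6 to 8 lower.

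At single times the unblocked edgeR test called 0 of the 300 genes. The background was 0.0589% of all models at 7 h, 0.00841% at 12 h and 0.00421% at 25 h. At an unadjusted p under 0.05 there were 20, 18 and 30 of the 300 genes at these times, against 2.27%, 1.37% and 1.21% of all models. DESeq2 called 1 gene at 7 h, against 0.189%, and 0 at 12 and 25 h, against 0.0505% and 0.0168%. The fit with a term for each pair called 44 genes at 7 h, against 3.42%, of which 27 were lower. It called 31 at 12 h, against 1.26%, of which 14 were lower, and 23 at 25 h, against 0.442%, of which 6 were lower and 17 higher. Choosing genes with sGFP levels that fall from 7 to 25 h favours lower calls at 7 h and higher calls at 25 h. The counts at single times are therefore a description.

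POPTR_0004s05830.1 was called higher with PtrSND1-B1. With sGFP it stood at 53.9, 78.9 and 97.5 CPM at 7 h, 19.4, 36.1 and 60.7 CPM at 12 h, and 6.37, 13.9 and 11.1 CPM at 25 h. With PtrSND1-B1 it stood at 151.9, 144.3 and 157.4 CPM at 7 h, 53.9, 85.9 and 114.4 CPM at 12 h, and 32.4, 20.8 and 27.5 CPM at 25 h. The constructs do not overlap at 7 and 25 h, and at 12 h library 3 of sGFP exceeds library 1 of PtrSND1-B1. The mean log2 difference was 1.16 (SE 0.201, edgeR adjusted p = 0.0257), and 1.22 with the block (adjusted p = 0.000931). From 7 to 25 h POPTR_0004s05830.1 fell by 2.30 (log2) in the PtrSND1-B1 libraries (SE 0.260, edgeR adjusted p = 0.00115).

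The difference of POPTR_0004s05830.1 did not pass without any 1 of 11 of the 18 libraries, with edgeR adjusted p between 0.0501 and 0.0796. It passed without sGFP library 3 of any time, sGFP library 1 of 12 h, or PtrSND1-B1 library 3 of 7 h, 1 of 12 h or 2 of 25 h. The log2 difference stayed between 1.06 and 1.31 throughout.

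POPTR_0011s05700.1 was the other gene called higher. Its sGFP levels were 9.60, 7.78 and 5.68 CPM at 7 h, 4.61, 2.10 and 2.95 CPM at 12 h, and 1.00, 0.731 and 1.15 CPM at 25 h. With PtrSND1-B1 they were 37.0, 25.4 and 16.3 CPM at 7 h, 12.5, 6.90 and 7.72 CPM at 12 h, and 2.93, 1.49 and 2.45 CPM at 25 h. The constructs do not overlap at any time. The mean log2 difference was 1.46 (SE 0.271, edgeR adjusted p = 0.0406). The call on POPTR_0011s05700.1 was lost without any 1 of 15 of the 18 libraries, with edgeR adjusted p between 0.0528 and 0.207, and held without sGFP library 1 of 12 h or PtrSND1-B1 library 3 of 7 h or 2 of 25 h. The PtrSND1-B1 change from 7 to 25 h was -3.28 (SE 0.464, edgeR adjusted p = 0.00273).

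POPTR_0014s12290.1 was the gene called lower with PtrSND1-B1. Its sGFP levels were 75.9, 85.6 and 71.1 CPM at 7 h, 31.2, 28.1 and 38.1 CPM at 12 h, and 18.3, 19.0 and 11.4 CPM at 25 h. With PtrSND1-B1 they were 45.8, 40.2 and 45.1 CPM at 7 h, 18.2, 14.1 and 25.5 CPM at 12 h, and 12.5, 12.3 and 8.26 CPM at 25 h. The constructs do not overlap at 7 and 12 h, and at 25 h library 3 of sGFP lies within the PtrSND1-B1 range. The mean log2 difference was -0.72 (SE 0.122, edgeR adjusted p = 0.0220), and it fell by 1.82 (log2) from 7 to 25 h in the PtrSND1-B1 libraries (SE 0.242, edgeR adjusted p = 0.00205). The construct call on POPTR_0014s12290.1 was lost without any 1 of 7 libraries, sGFP libraries 1 and 2 of 7 h, 1 of 12 h, 1 and 2 of 25 h, and PtrSND1-B1 libraries 2 of 7 h and 3 of 25 h, with edgeR adjusted p between 0.0501 and 0.0758.

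The highest library at 7 h was most often number 3, for the 300 genes as over all models tested. At 7 h the highest sGFP library was number 3 for 151 of the 300 genes, number 2 for 80 and number 1 for 69. With PtrSND1-B1 the corresponding counts were 151, 84 and 65, and for 255 genes the highest number was the same in both constructs. Of all models tested with a read at 7 h, 42.7%, 32.9% and 24.4% were highest in numbers 3, 2 and 1 with sGFP. With PtrSND1-B1 these shares were 44.2%, 35.1% and 20.7%. The ratio of the highest to the lowest of the 3 libraries at 7 h had a median of 2.18 with sGFP and 2.13 with PtrSND1-B1. It reached 4 or more for 51 and 52 genes. Neither the ratios nor the shared highest number were counted over all models. Between genes grouped by their highest number, the change was alike within its spread. Genes highest in sGFP number 1, 2 or 3 had PtrSND1-B1 median changes from 7 to 25 h of -2.36 ± 0.0427, -2.23 ± 0.211 and -2.13 ± 0.303 (SD over 3 numbers).

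The 300 genes were spread over 28 of the numbered prefixes in the file's identifiers, with some close together in the list. Counted for each gene and each side, the genes had 591 neighbouring positions in the list. Of these positions 36 held another of the 300, or 6.09%, while 0.738% of all first models and 1.26% of those tested are among the 300. A gene with members on both sides was counted for each. In all 32 genes stood in 14 runs of adjacent identifiers, and 90 genes had another of the 300 within 10 identifiers. The count of 90 has no background beside it here.

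The longest run held 5 genes with identifiers beginning POPTR_0002. Their sGFP means lay between 50.0 and 320.6 CPM at 7 h and between 6.35 and 50.2 CPM at 25 h, changes of -3.49 to -2.49. With PtrSND1-B1 their changes ran from -2.97 to -2.25. Near copies could share reads here too, and no 2 of the 300 genes had identical counts in all libraries (0 genes). Further models were listed for 20 of the loci, 27 models in all, of which 15 carried the same counts as the first.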

How the data were processed

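Total RNA of 18 protoplast libraries had been sequenced, and 1 table of raw counts per gene model was deposited, 1 column for each library. Per the submitters' processing notes, the tools include TopHat and edgeR, with no role or version. Genome build, counting tool, strandedness and treatment of multiply mapped reads are not stated in the labels. Groups and replicate numbers come from the library titles.

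The members and all lists were chosen with earlier results of these data known. Of 45033 models, the first of each of 40668 loci was used. CPM is the count divided by the library's sum over first models, and changes are differences of log2(CPM + 1) within a replicate number. Counts were tested with edgeR 4.0.16 in R 4.3.3 (filterByExpr, TMM, quasi-likelihood, Benjamini-Hochberg over all models tested, 0.05), fitted to the 9 PtrSND1-B1 libraries for changes over time and to all 18 for the constructs. The SE was taken as the log2 fold change over the square root of F. Of the fits, only the unblocked edgeR fit of the PtrSND1-B1 libraries, 25 h against 7 h, was tried on simulated counts. The simulated libraries shared no deviations by replicate number. DESeq2 1.42.0 was an alternative. Others were a replicate block, a fit over all libraries, RLE (DESeq2's size factors), library size alone, no filter on low counts and leaving out each library. All models as separate entries and a term for each pair of time and number were added after seeing the data. Reads carried no molecular identifiers that the labels mention, so counting error is a lower limit on error.

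The labels do not say that a replicate number marks a shared batch. Deviations from group means of same-numbered PtrSND1-B1 libraries correlated across times at 0.102 to 0.653 (9 of 9 pairs over 0.1), and those of the 2 constructs at the same time at 0.345 to 0.752, so the numbers were taken to pair the libraries, on the data alone. The pairing was weaker across times in sGFP libraries, where 8 of 9 pairs passed.

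The text names the 2 genes with the largest sGFP fall and the 3 called between constructs. The rule also listed further genes by sGFP fall, by level and by smallest PtrSND1-B1 change, and these are described without identifiers because the identifiers carry no names. The 11-gene and 14-gene counts and the gene with the largest construct difference were chosen after their values were seen. Lists of pathway genes, cell type markers and sequences could not be used, since 0 identifiers matched the RefSeq gene table. Levels are not compared between genes per length, as no gene lengths were used here.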

Additional observations from a re-analysis of the deposited data

How the results depend on the processing

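No named-gene change, nor the median PtrSND1-B1 change from 7 to 25 h, was reversed under the alternatives run. The construct medians at single times did change sign, as given with them. The median change of the 300 genes with PtrSND1-B1 was -2.34 with log2(CPM + 0.5), -2.04 with TMM-scaled CPM and between -2.25 and -2.11 without single replicate numbers. The number of genes meeting the conditions was 229 with TMM-scaled CPM, 493 with log2(CPM + 0.5), and ranged from 311 to 362 without single numbers, of which 205 to 242 were among the 300.

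At 25 h against 7 h the count of genes called lower ranged from 169 to 258 without single libraries. It was lowest without PtrSND1-B1 library 2 of 25 h, where 763 of 23367 models were called lower. It was highest without library 3 of 12 h, where 1665 of 23344 were. Counts over all models follow in brackets, out of 22590 models, 23777 with all 18 libraries and 35755 with no filter. From 7 to 12 h the count called lower was 164 with the replicate block (472) and 9 with all 18 libraries (21). It was 56 with DESeq2 (154) and 0 without any single library, as over all models. From 12 to 25 h it was 169 with the block (511), 31 with all 18 libraries (70) and 13 with library size only (25). It was 14 with no filter (28), 67 with DESeq2 (157), and 0 or 1 without single libraries, as over all models. The construct call over 3 times was 38 genes with the block, 86 with a term for each pair, 7 with no filter and 14 with DESeq2. It was 0 to 11 without single libraries. Of all 23777 models the block called 113 lower and 110 higher, the term for each pair 1139 and 929, and DESeq2 34 and 74. With no filter 7 and 40 of 37199 models were called. At 7 h the construct call was 3 genes with the block, 44 with a term for each pair and 1 with DESeq2. It was 1 and 31 with these blocks at 12 h, and 23 with a term for each pair at 25 h. Leaving out single libraries gave 0 throughout. Over all models the block called 17 lower and 51 higher at 7 h, and 4 and 10 at 12 h. The counts of the 300 genes and of all models thus both changed with the setting. The cause was not tested. The common coefficient of variation was 28% without the block and 18.6% with it in the PtrSND1-B1 fit.

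The call on POPTR_0011s05700.1 was also lost with RLE, and that on POPTR_0014s12290.1 with library size only (edgeR adjusted p = 0.0507). Changes of genes under 1 CPM at 25 h are limited by depth.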
